A study of Mus musculus with 6 samples.

Results

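The 78 mouse genes that encode mitochondrial ribosomal proteins were followed in 6 libraries of liver RNA. They are the protein-coding genes whose names begin with Mrpl or Mrps and a number, 78 of the 54532 genes of the count table. By name, 49 belong to the large subunit (Mrpl) and 29 to the small subunit (Mrps). A further 5 rows with such names are not protein-coding and were left out. All libraries come from male mice that ate a high-fat diet from 8 weeks of age on, for 8 weeks; such feeding fattens the liver. The control group, labelled WT, comprised 3 libraries (replicates 1, 2 and 3) of wild-type littermates. The other group, labelled KO, comprised 3 libraries (replicates 4, 5 and 6) of Trem2-deficient (Trem2-/-) mice, which lack a lipid-sensing receptor of macrophages. The sources used here do not give which part of Trem2 was deleted. Nor do they tie the libraries to separate mice, so the p-values refer to the spread between these libraries, which may be technical.

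Mitochondria carry their own ribosome, which makes the few respiratory chain proteins encoded by mitochondrial DNA. Its RNA core is transcribed inside the organelle, whereas every one of its proteins is encoded in the nucleus, made in the cytosol and imported. The large subunit forms peptide bonds and releases the new chain through an exit tunnel at the inner membrane. The small subunit binds the messenger and reads its codons. Some of these proteins descend from bacterial ribosomal proteins and others are found only in mitochondria. In the liver this ribosome supplies the oxidative machinery on which fatty acid breakdown depends.

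The start regions of these genes, which are scattered over 17 chromosomes, are shown first. Windows of 300 bases, from 250 before to 50 after the start, were available from RefSeq (GRCm38.p6) for 69 of the 78 genes, in 75 windows. The 5 promoter motifs named next were searched on both strands. The motif of nuclear respiratory factor 1 (NRF1; GCGC, any base, TGCGC), an activator of nuclear genes for mitochondrial proteins, stood in 17.3% of the windows, against 9.63% of the windows of all tested protein-coding genes. A core for ETS-family factors (CCGGAAG) stood in 34.7% against 16.8%, and a YY1 motif (AAGATGGCG) in 10.7% against 2.94%. The CCAAT box (CCAAT) was about as common as elsewhere, at 40% against 37.7%, and so was the TATA box (TATAAA), at 6.67% against 7.53%. Within the family, the NRF1 motif stood in 20.8% of large-subunit and 11.1% of small-subunit windows, and the ETS core in 31.2% and 40.7%. These are matches of letters, with no measurement of binding, and a link between motifs and levels in the libraries was not tested.

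The following stretches lie just before the start in no annotated exon, written 5′ to 3′ on the gene's strand with the motif matches in capitals. The first 3 belong to genes whose level differed several-fold between libraries, and the last to the gene that varied least among those tested. They are examples with a match. Mrpl44 and Mrpl46 had no NRF1, ETS, YY1 or CCAAT match in such a stretch. Their highest library was 3.76 and 3.64 times their lowest. The whole window of Mrpl44, which reaches beyond its stretch, did hold an NRF1 motif. The stretch of Mrpl46 was only 29 bases long, and its whole window held a TATA box but none of the other motifs. Mrps12 (chr7:28741822-28741991, minus strand) has CCAAT boxes in the gap it shares with Sars2, the mitochondrial seryl-tRNA synthetase gene read the other way. Mrpl12 (chr11:120484387-120484612, plus strand) has an NRF1 motif. Mrpl34 (chr8:71464676-71464925, plus strand) has an ETS core. Mrps25 (chr6:92184034-92184273, minus strand) has a CCAAT box on the opposite strand, which reads as ATTGG.
Mrps12: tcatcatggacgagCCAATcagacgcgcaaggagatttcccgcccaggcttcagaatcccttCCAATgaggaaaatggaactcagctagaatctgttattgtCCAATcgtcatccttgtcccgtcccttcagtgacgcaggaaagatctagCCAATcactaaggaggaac
Mrpl12: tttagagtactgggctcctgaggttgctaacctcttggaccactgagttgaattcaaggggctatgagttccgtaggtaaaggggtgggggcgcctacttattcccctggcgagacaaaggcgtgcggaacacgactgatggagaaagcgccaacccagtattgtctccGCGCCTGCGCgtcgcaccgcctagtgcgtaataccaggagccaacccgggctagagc
Mrpl34: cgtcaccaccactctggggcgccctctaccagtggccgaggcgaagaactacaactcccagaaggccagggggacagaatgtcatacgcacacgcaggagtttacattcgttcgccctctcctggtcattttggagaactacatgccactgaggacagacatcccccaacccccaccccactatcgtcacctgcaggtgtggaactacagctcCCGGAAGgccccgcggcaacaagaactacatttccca
Mrps25: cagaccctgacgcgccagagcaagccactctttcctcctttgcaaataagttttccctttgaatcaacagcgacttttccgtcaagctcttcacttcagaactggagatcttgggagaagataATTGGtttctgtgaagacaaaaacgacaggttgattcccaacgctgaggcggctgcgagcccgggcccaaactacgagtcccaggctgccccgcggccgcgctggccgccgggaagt

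The libraries held between 11591021 and 20399361 counts. Hepatocyte markers were abundant in every library, summing to 78984 to 106808 CPM (counts relative to the library total, scaled by the trimmed mean of M values, TMM) in WT and 81456 to 85882 CPM in KO. Trem2 had 7, 26 and 26 counts in the WT-labelled and 9, 6 and 5 in the KO-labelled libraries, so that the library labelled WT replicate 1 lay within the KO range. Each direction below is therefore between libraries as labelled. Genes of the mitochondrial chromosome made up 8.16%, 12.7% and 10.2% of all counts in WT replicates 1, 2 and 3, and 28.0%, 9.08% and 19.8% in KO replicates 4, 5 and 6; this is called the mitochondrially encoded share below.

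Per unit of length, mitochondrial ribosomal protein messengers spanned a wide range of levels. The levels here are RPKM, CPM divided by the gene's length in kilobases, given as mean ± SD over all 6 libraries. Mrps21, a small-subunit protein with a bacterial counterpart, had the highest level at 109 ± 20.1 RPKM (n = 6), followed by Mrpl14 of the large subunit at 103 ± 6.08 RPKM. Those neighbours lay within their spread. Next came Mrpl27, a central-protuberance protein, at 76.0 ± 6.05 RPKM. At the other end were Mrps18b at 3.08 ± 2.39 RPKM, Mrps30 at 2.91 ± 0.420 RPKM, Mrpl19 at 1.77 ± 0.218 RPKM and Mrpl3 at 1.67 ± 0.617 RPKM (n = 6 each), of which Mrps18b and Mrps30, like Mrpl19 and Mrpl3, lay within each other's spread. The table gives Mrpl3 and Mrps30 lengths of 6661 and 6666 bases, against 949 for Mrpl14, and a length summed over exons lowers the level of a gene whose messenger uses only some of them. The median level was 15.5 RPKM for the 49 large-subunit genes and 9.16 RPKM for the 29 small-subunit genes, against 2.60 RPKM for all tested genes. Mrpl53 had 0 counts in all 6 libraries, and 88.0% of its exon bases also belong to exons of another gene on the same strand, so that reads there fit both genes.

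No mitochondrial ribosomal protein gene passed the test between the genotypes. The test was edgeR's quasi-likelihood test with Benjamini-Hochberg adjustment over 13693 genes, of which 77 were family members; Mrpl53 did not enter. Called at an adjusted p under 0.05 were 0 of the 77, where 0.0146% of all tested genes (2 genes, both higher in KO) were called. The lowest adjusted p among them was 0.575. At an unadjusted p under 0.05 there was 1 gene lower in KO, Mrpl32, where 3.21% of all genes were lower, and 0 higher, where 5.37% were. DESeq2 also called 0 of the 77, where it called 0.818% of all genes higher and 0.467% lower, and had 3 of the 77 at an unadjusted p under 0.05, as were 9.99% of all genes. Limma-voom called 0, where 0.0073% of all genes were called higher and 0 lower, and had 1 at an unadjusted p under 0.05, as were 8.08% of all genes. Limma-voom with sample quality weights, which gives libraries unequal weight, called 5 of the 77 higher and 21 lower. Over all genes it called 15.1% higher and 14.6% lower. At an unadjusted p under 0.05 it had 37 of the 77 (48.1%), as were 44.4% of all genes.

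The fitted differences were small. Of the 77 genes, 52 were fitted lower in KO (67.5%, against 50.9% of all genes) and 25 higher, where 49.1% of all genes were fitted higher. Their median log2 fold change (KO over WT) was −0.16, against −0.01 for all tested genes, and their middle 50% ran from −0.38 to 0.08. The whole range was −0.95 to 0.44, so that 0 of the 77 differed more than 2-fold, as 1176 of all 13693 tested genes did. The median standard error (SE) of a member was 0.24, against 0.33 over all tested genes. The median level was 34.0 CPM for the members and 11.2 CPM for all tested genes, so the 2 sets differ in precision and level. The majority for lower values held when each library was left out in turn, with 22 to 30 of 77 fitted higher. When WT replicate 1 and KO replicate 4 were left out together, 44 of 77 were fitted higher. WT replicate 1 was the highest library for 39 members and KO replicate 4 the lowest for 37, so leaving out this pair favours higher fits. With the mitochondrially encoded share as a covariate, 44 of 77 were also fitted higher. Because these are whole-liver samples, fewer cells of a type and less RNA per cell cannot be told apart.

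**Figure D1:**
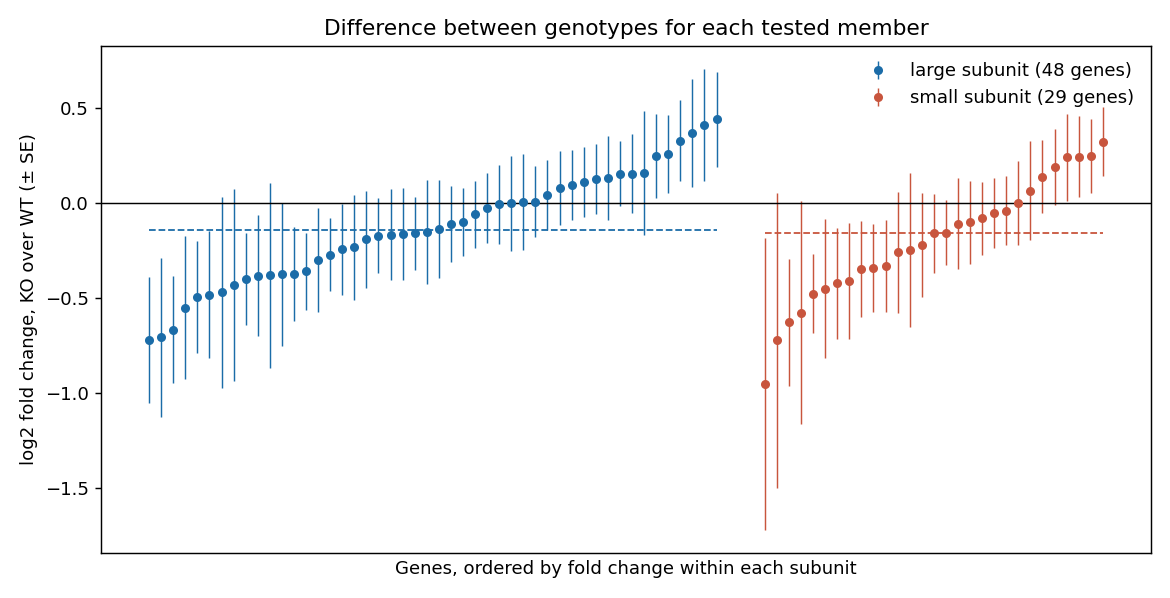
Log2 fold change of KO over WT for each tested gene (points, with SE as bars), ordered within the large subunit (48 genes) and the small subunit (29 genes); dashed lines are the medians, −0.14 and −0.16. Both subunits spread to both sides of 0, from −0.72 to 0.44 and from −0.95 to 0.32.

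The large and the small subunit had similar medians. Of the 48 tested large-subunit genes, 17 were fitted higher and 31 lower, with a median log2 fold change of −0.14. Of the 29 small-subunit genes, 8 were higher and 21 lower, with a median of −0.16. The medians differed by 0.02 on the log2 scale. Structures of the mammalian mitochondrial ribosome place the proteins of Mrps30 and Mrps18a in the large subunit and do not contain that of Mrps36. With the genes assigned in that way, the medians were −0.14 over 50 large-subunit and −0.19 over 26 small-subunit genes. Large-subunit messengers summed to 2180, 1802 and 2106 CPM in the WT libraries and to 1814, 1996 and 2068 CPM in the KO libraries. Small-subunit messengers summed to 1039, 804 and 973 CPM in WT and to 810, 907 and 898 CPM in KO. In both sums the genotypes overlapped. The ratio of the large to the small sum was 2.17 ± 0.0714 in WT and 2.25 ± 0.0515 in KO (SD, n = 3 each). All members together took 0.249% to 0.319% of the counts of a library, and both ends of that range were KO libraries.

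Proteins with and without a bacterial counterpart gave similar medians. The 46 tested genes of bacterial descent had a median log2 fold change of −0.16, with 14 higher and 32 lower. The 31 without such a counterpart had a median of −0.14, with 11 higher and 20 lower. Split further by name, the 18 large-subunit genes listed without a counterpart were even, 9 higher and 9 lower (median −0.06). The 13 listed so for the small subunit were 2 higher and 11 lower (median −0.25). These 13 include Mrps18a and Mrps30, which structures place in the large subunit. They also include Mrps36, which structures do not contain and which was among the 2 fitted higher. Mrps18a and Mrps18b are listed as without a counterpart, although the related Mrps18c is listed with one. None of these splits was tested.

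**Figure D2:**
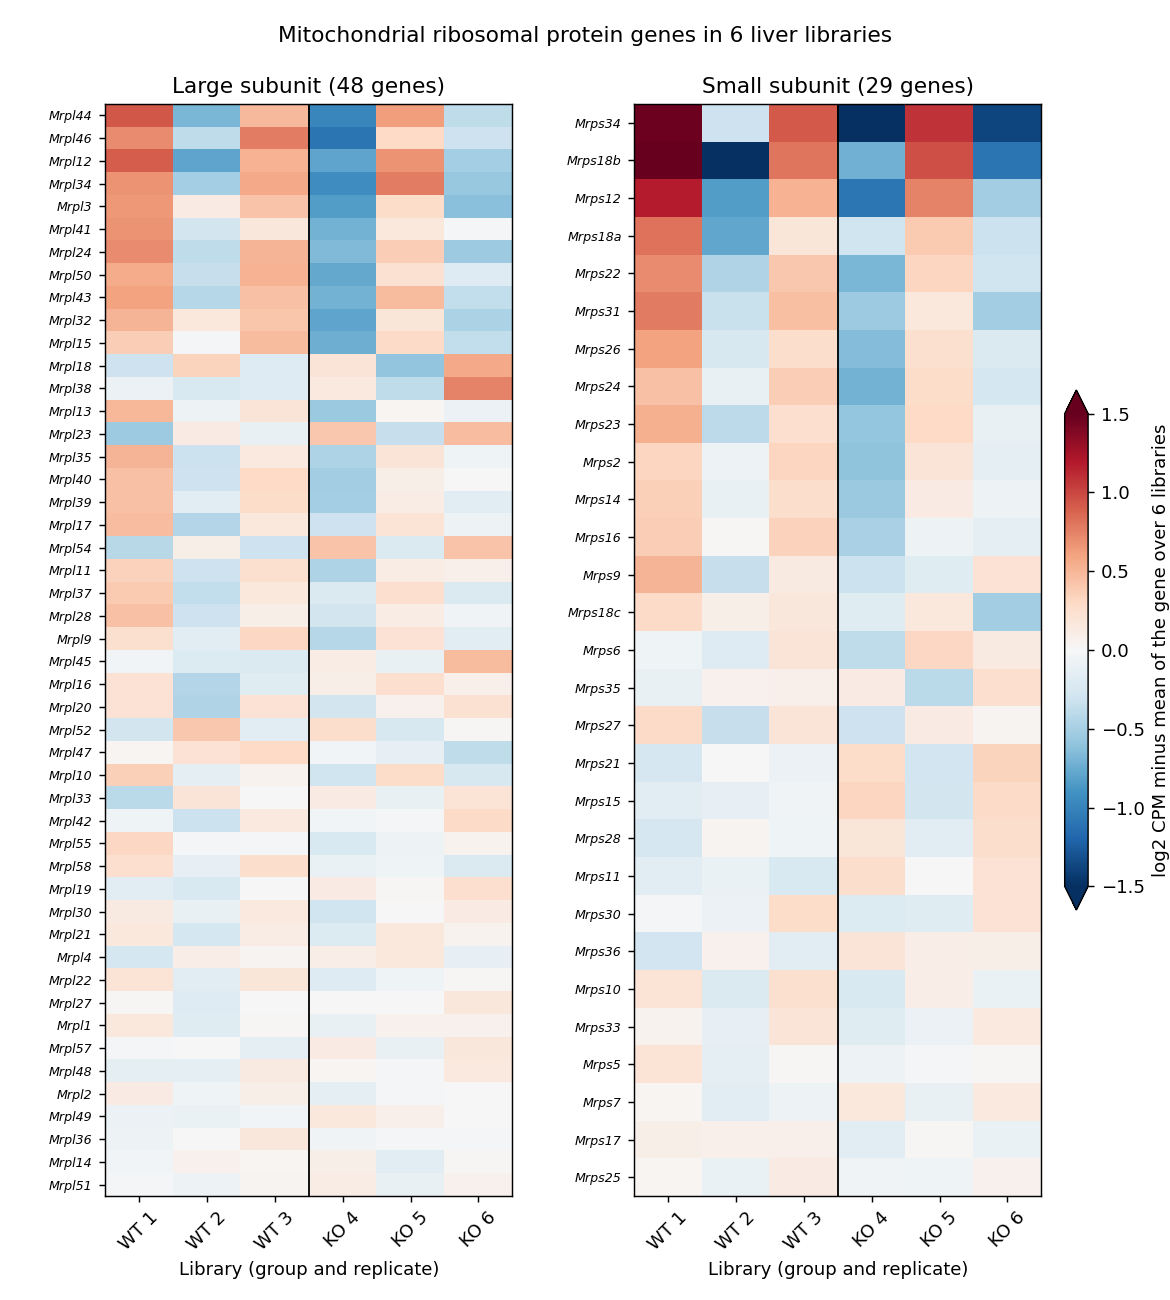
Log2 CPM of each tested gene minus its mean over the 6 libraries, for 48 large-subunit and 29 small-subunit genes; rows run from the most to the least variable gene and the line parts WT from KO libraries. Colours are capped at ±1.5. In WT replicate 2, 59 of 77 genes are below their own mean (blue), and in KO replicate 4, 54 are, against 24 in WT replicate 1 and 17 in WT replicate 3.

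Among large-subunit genes, those with the smallest unadjusted p were Mrpl32, Mrpl3, Mrpl47, Mrpl54 and Mrpl15. Mrpl32 (ENSMUSG00000015672, mm10 chr13:14608184-14613165), whose protein must be trimmed by the mitochondrial m-AAA protease before it enters the ribosome, measured 21.7, 17.1 and 20.4 CPM in WT replicates 1, 2 and 3 and 8.81, 17.3 and 11.0 CPM in KO replicates 4, 5 and 6. KO replicate 5 lay inside the WT range and the other KO libraries below it. Its mean was 19.7 ± 2.36 CPM in WT and 12.4 ± 4.39 CPM in KO (SD, n = 3 each), a log2 fold change of −0.67 (SE 0.28, edgeR adjusted p = 0.575). Mrpl3 (ENSMUSG00000032563, chr9:105053239-105079888), a counterpart of a bacterial core protein, measured 16.3, 11.3 and 14.0 CPM in WT and 5.81, 12.6 and 6.70 CPM in KO. Again KO replicate 5 overlapped the WT libraries and KO replicates 4 and 6 did not (log2 −0.72, SE 0.33, edgeR adjusted p = 0.606).

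Mrpl47 (ENSMUSG00000037531, chr3:32725397-32737605), which sits at the tunnel exit, was the only large-subunit gene with all KO libraries below all WT libraries. Its values were 14.0, 15.9 and 16.8 CPM in WT and 13.4, 12.6 and 10.5 CPM in KO. The means were 15.6 ± 1.45 and 12.1 ± 1.47 CPM (SD, n = 3 each), and the difference did not pass the test (log2 −0.36, SE 0.20, edgeR adjusted p = 0.647). Mrpl54 (ENSMUSG00000034932, chr10:81264713-81266934), a protein specific to mitochondria, leaned the other way, with 34.4, 48.7 and 37.2 CPM in WT and 61.8, 39.6 and 61.9 CPM in KO. WT replicate 2 and KO replicate 5 made the groups overlap (log2 0.44, SE 0.25, edgeR adjusted p = 0.648). Mrpl15 (ENSMUSG00000033845, chr1:4773206-4785739), a counterpart of a bacterial core protein, measured 58.3, 44.6 and 62.5 CPM in WT and 27.2, 55.2 and 34.9 CPM in KO. Here too KO replicate 5 fell among the WT values (log2 −0.49, SE 0.29, edgeR adjusted p = 0.657).

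Among small-subunit genes the same rule named Mrps16, Mrps31, Mrps11, Mrps18c and Mrps24. Mrps16 (ENSMUSG00000049960, chr14:20389304-20393634), a counterpart of a bacterial protein, measured 33.2, 26.1 and 32.7 CPM in WT and 18.3, 24.4 and 23.2 CPM in KO. All KO libraries lay below all WT libraries, from means of 30.7 ± 3.99 and 22.0 ± 3.22 CPM (SD, n = 3 each; log2 −0.48, SE 0.21, edgeR adjusted p = 0.585). Mrps11 (ENSMUSG00000030611, chr7:78783119-78792989), also with a bacterial counterpart, went the other way without overlap. It measured 21.5, 22.5 and 20.5 CPM in WT and 28.7, 24.1 and 27.8 CPM in KO (log2 0.32, SE 0.18, edgeR adjusted p = 0.645). Mrps31 (ENSMUSG00000031533, chr8:22411361-22429665), specific to mitochondria, measured 34.3, 15.9 and 27.3 CPM in WT and 13.7, 22.4 and 13.9 CPM in KO. WT replicate 2 was near the KO libraries (log2 −0.63, SE 0.33, edgeR adjusted p = 0.638).

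**Figure D3:**
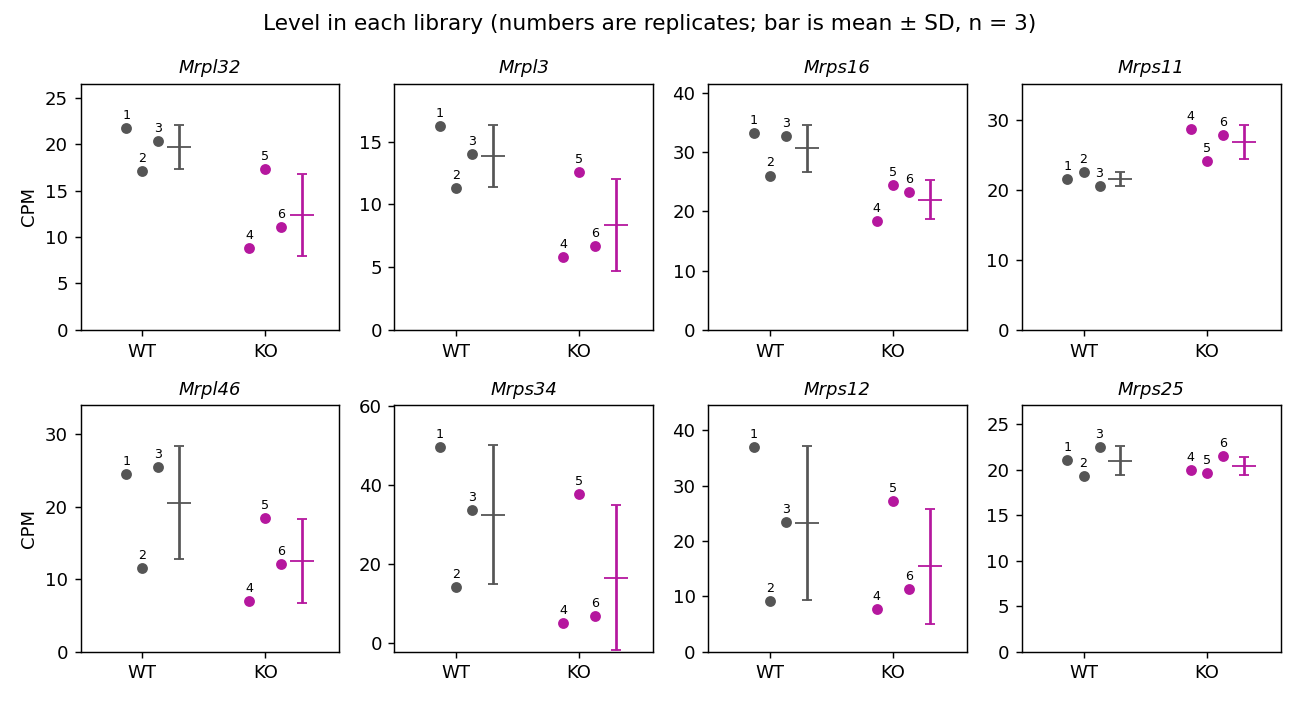
CPM of 8 members in each library (points, numbered by replicate) with the mean and SD of each group (n = 3) beside them. Mrps16 and Mrps11 have groups that do not overlap; in Mrps34 and Mrps12 the spread within a group exceeds the difference between the means; Mrps25 is near 20 CPM in every library.

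Over the whole family, the KO libraries lay all above the WT libraries in 4 genes and all below in 3. Among all tested genes these shares were 8.12% and 5.73%. The genes above were Mrpl19, Mrpl49, Mrps11 and Mrps36, and those below were Mrpl47, Mrps16 and Mrps17. Such separation could be narrow: Mrps17, the counterpart of another bacterial small-subunit protein, measured 50.2, 49.6 and 49.8 CPM in WT and 42.1, 47.9 and 44.1 CPM in KO (log2 −0.16, SE 0.17, edgeR adjusted p = 0.764). Mrps36, named as a ribosomal protein but absent from ribosome structures, measured 12.5, 15.9 and 13.6 CPM in WT and 17.4, 16.3 and 16.2 CPM in KO (log2 0.25, SE 0.19, edgeR adjusted p = 0.697).

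By place in the ribosome, the list of stalk proteins had 1 of 4 genes fitted higher and 3 lower (median log2 fold change −0.18). It joins Mrpl10, Mrpl11 and Mrpl12, of the stalk that receives translation factors, with Mrpl1, which belongs to another stalk. Mrpl12, the stalk protein that also binds the mitochondrial RNA polymerase, measured 70.0, 21.6 and 53.6 CPM in WT and 21.5, 59.6 and 26.3 CPM in KO. WT replicate 2 was level with KO replicate 4, and KO replicate 5 was above WT replicate 3. The group means were thus 48.4 ± 24.6 and 35.8 ± 20.7 CPM (SD, n = 3 each; log2 −0.43, SE 0.51, edgeR adjusted p = 0.780), and leaving out single libraries moved the difference between −1.02 and −0.07. Mrpl12 was fitted higher, at 0.19, with WT replicate 1 and KO replicate 4, its highest and lowest libraries, left out. With the mitochondrially encoded share as a covariate it was fitted higher at 0.36. Mrpl1, the gene of this list that was fitted higher, barely moved, with 29.9, 23.6 and 27.1 CPM in WT and 24.9, 28.1 and 28.0 CPM in KO (log2 0.01).

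The central protuberance, where the subunits and transfer RNA meet, had 4 genes higher and 3 lower (median 0.09). Its members diverged: Mrpl46 measured 24.6, 11.5 and 25.4 CPM in WT and 6.99, 18.4 and 12.1 CPM in KO (log2 −0.71, SE 0.42, edgeR adjusted p = 0.657). Mrpl38 measured 101, 91.5 and 93.9 CPM in WT and 118, 82.5 and 179 CPM in KO (log2 0.41, SE 0.29, edgeR adjusted p = 0.682). The high value of KO replicate 6 stood apart from the others in Mrpl38. At the tunnel exit 2 genes were higher and 4 lower (median −0.16). Mrpl45, which helps to hold the ribosome to the inner membrane, measured 40.1, 35.8 and 35.5 CPM in WT and 44.4, 38.1 and 57.3 CPM in KO (log2 0.33, SE 0.21, edgeR adjusted p = 0.666). Mrpl24, also at the exit, measured 73.2, 34.2 and 63.6 CPM in WT and 28.2, 57.8 and 30.5 CPM in KO (log2 −0.55, SE 0.37, edgeR adjusted p = 0.675). In Mrpl24, WT replicate 2 sat with KO replicates 4 and 6.

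All 3 genes of the messenger channel and decoding site were fitted lower (median −0.42). Mrps24, at the channel entrance, measured 54.7, 37.3 and 52.0 CPM in WT and 24.6, 49.0 and 33.7 CPM in KO (log2 −0.42, SE 0.29, edgeR adjusted p = 0.676). Its difference became 0.00 with the mitochondrially encoded share as a covariate. Mrps12, the counterpart of the bacterial decoding protein, measured 37.0, 9.16 and 23.4 CPM in WT and 7.72, 27.3 and 11.4 CPM in KO (log2 −0.58, SE 0.59, edgeR adjusted p = 0.749). Mrps5, the remaining channel protein, was steady, from 50.5 to 64.4 CPM over all libraries (log2 −0.05).

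The Mrps18 family consists of related proteins that occupy different places in the ribosome, and its 3 genes were fitted lower (median −0.34). Mrps18c measured 16.8, 14.7 and 15.5 CPM in WT and 12.1, 15.3 and 9.59 CPM in KO (log2 −0.34, SE 0.23, edgeR adjusted p = 0.673). Mrps18a measured 32.1, 10.6 and 20.7 CPM in WT and 14.8, 23.9 and 14.5 CPM in KO, with groups that overlapped widely (log2 −0.25, SE 0.41, edgeR adjusted p = 0.844). Mrps18b varied most, from 26 counts in WT replicate 2 to 228 in WT replicate 1, and from 32 in KO replicate 4 to 201 in KO replicate 5 (log2 −0.72, SE 0.77, edgeR adjusted p = 0.760). The spread within each group of Mrps18b was thus wider than the difference between the groups. Mrps30, a large-subunit protein despite its name, measured 18.9, 18.1 and 23.3 CPM in WT and 16.7, 17.0 and 22.5 CPM in KO (log2 −0.10, SE 0.22, edgeR adjusted p = 0.880).

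Some members varied widely between libraries of the same genotype. The ratio of a gene's highest to its lowest library had a median of 1.61 over the 77 members, against 2.18 over all genes. It exceeded 2 in 24 members and stayed under 1.5 in 26. Mrps34, a mitochondria-specific protein, had the widest ratio, 9.56, with 49.5, 14.3 and 33.7 CPM in WT and 5.18, 37.8 and 6.90 CPM in KO. These values rest on 794, 224 and 692 counts in WT and 57, 817 and 105 in KO. KO replicate 5 exceeded WT replicate 3, and WT replicate 2 was closer to KO replicates 4 and 6. Mrps12 (ratio 4.79), Mrpl12 (3.25) and Mrpl34 (3.23) likewise had WT replicates 1 and 3 and KO replicate 5 as their high libraries. Mrpl34 measured 48.7, 21.4 and 45.5 CPM in WT and 16.1, 51.9 and 20.6 CPM in KO. By contrast, Mrps25 kept to 19.3 to 22.5 CPM over all libraries, Mrpl51 to 81.1 to 95.2 CPM and Mrpl14 to 87.5 to 104 CPM. Steady and variable genes occurred in both subunits.

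After TMM scaling, the median member was lowest, within each genotype, in the library with the largest mitochondrially encoded share. In both genotypes the number of members lowest in that library depended on the scaling. The summed share of the members in all counts, another measure than the median member, gave another order in WT. As an unscaled share of all counts, the members made up 0.282%, 0.293% and 0.310% in WT replicates 1, 2 and 3, so that WT replicate 1 was the lowest, and 0.249%, 0.319% and 0.284% in KO replicates 4, 5 and 6. The TMM factors of WT replicates 1 and 2 were 0.876 and 1.13. On the TMM scale, the median member of the large subunit deviated from its own 6-library mean by 0.22, −0.16 and 0.15 (log2 CPM) in WT replicates 1, 2 and 3, and by −0.21, 0.07 and 0.00 in KO replicates 4, 5 and 6. For the small subunit these deviations were 0.29, −0.12 and 0.19 in WT and −0.30, 0.10 and −0.08 in KO. Within WT, the library with the largest mitochondrially encoded share (replicate 2) was the lowest of the 3 for 60 of 77 members (77.9%), against 39.5% of all genes. Within KO, the library with the largest share (replicate 4) was the lowest for 48 of 77 (62.3%), against 36.3%. Large and small subunit were alike in this, at 77.1% and 79.3% in WT and at 62.5% and 62.1% in KO. With library size alone they were 49.4% against 26.2% in WT and 67.5% against 42.1% in KO, and with library sizes taken without the mitochondrially encoded genes 40.3% against 23.2% in WT and 45.5% against 26.5% in KO. A part of the mitochondrially encoded share in this order was not tested.

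**Figure D4:**
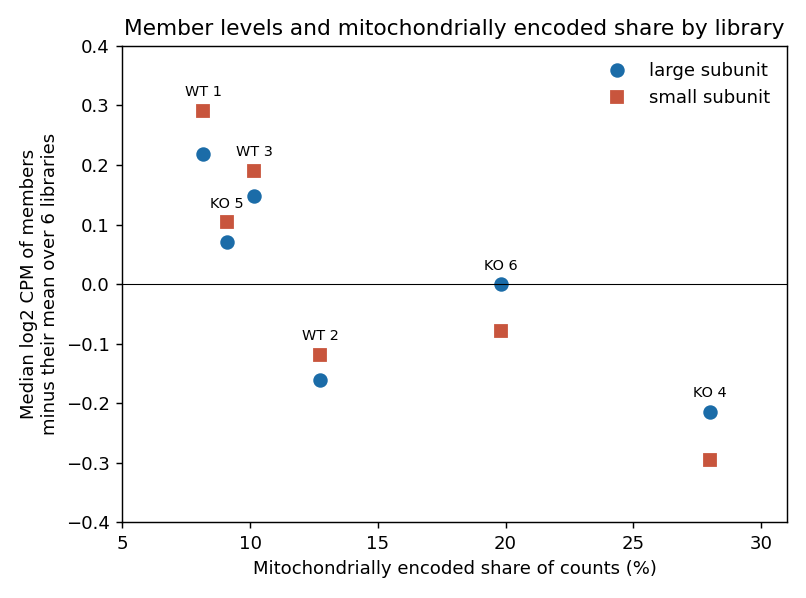
Median deviation of log2 CPM of large-subunit (circles) and small-subunit (squares) genes from their own 6-library mean, against the mitochondrially encoded share of counts in each library. WT replicate 1, at 8.16%, is highest (0.22 and 0.29) and KO replicate 4, at 28.0%, is lowest (−0.21 and −0.30), with libraries of both genotypes between. Values are TMM-scaled. The summed share of all members in the unscaled counts, another measure than the median, is lowest among WT libraries in WT replicate 1 (0.282%).

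Not every member followed that order. Mrpl18, a central-protuberance protein, was high where most were low, with 48.1, 75.6 and 52.4 CPM in WT and 68.4, 39.7 and 88.3 CPM in KO. Mrpl23, at the tunnel exit, behaved likewise with 45.1, 71.6 and 60.5 CPM in WT and 86.9, 51.8 and 90.4 CPM in KO. So did Mrps21, with 66.7, 79.8 and 74.6 CPM in WT and 96.1, 64.8 and 100 CPM in KO. In each of these, WT replicate 2 was the highest WT library and KO replicate 5 the lowest KO library. Mrpl18, Mrpl23 and Mrps21 were picked for this description after their values were seen.

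Summed markers of some other liver cells also differed between the labelled groups, while edgeR called 0 of the tested markers, where 0.0146% of all genes were called. Kupffer cell markers summed to 80.1 to 115 CPM in WT and 128 to 206 CPM in KO, with 7 of 7 fitted higher. Sinusoidal endothelial markers summed to 139 to 166 CPM and 210 to 309 CPM, with 6 of 6 fitted higher. Stellate cell markers summed to 140 to 158 CPM and 168 to 360 CPM, with 5 of 7 fitted higher. Among these, the collagen gene Col3a1 measured 12.2 to 34.8 CPM in WT and 48.5 to 147 CPM in KO. Col1a1 measured 4.11 to 8.90 CPM and 12.8 to 60.7 CPM. The 2 stellate cell markers fitted lower were Lrat (log2 −0.03) and Dcn (log2 −0.01). Of 8 hepatocyte markers 6 were fitted lower. Cholangiocyte markers overlapped, at 39.8 to 78.2 and 56.5 to 74.9 CPM, as did lymphocyte markers, at 2.93 to 5.51 and 1.85 to 6.36 CPM. Adipocyte markers stayed at 0 to 0.0623 CPM in WT and reached 15.9 CPM in KO replicate 5. The part of these cell types in the members' differences was not tested.

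Genes that work with the mitochondrial ribosome were examined from fixed lists, and edgeR called 0 of their 69 tested genes, with 0 at an unadjusted p under 0.05, where 5.37% of all genes were higher and 3.21% lower. DESeq2 and limma-voom also called 0, while limma-voom with sample quality weights called 1 higher and 13 lower, where it called 15.1% and 14.6% of all genes. Ribosomal subunits that carry other names had 2 of 5 genes fitted higher and 3 lower (median −0.28). Among them Chchd1, a small-subunit protein, measured 39.1, 11.3 and 29.0 CPM in WT and 6.90, 27.5 and 12.0 CPM in KO (log2 −0.77, SE 0.58, edgeR adjusted p = 0.687), and was fitted higher, at 0.15, with the mitochondrially encoded share as a covariate. Assembly and ribosomal RNA modification factors were fitted higher in 15 of 26 and lower in 11 (median 0.06). Mpv17l2, an assembly factor of the inner membrane, measured 16.9, 12.2 and 17.1 CPM in WT and 6.18, 15.0 and 8.67 CPM in KO (log2 −0.62, SE 0.34, edgeR adjusted p = 0.642). Both Chchd1 and Mpv17l2 had KO replicate 5 among the WT values.

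Translation factors were higher in 5 of 15 tested genes and lower in 10 (median −0.26), among them Mtrf1l, a release factor (log2 −0.52, SE 0.29, edgeR adjusted p = 0.642). Guf1, an elongation factor of the LepA type, leaned the other way (log2 0.41, SE 0.24, edgeR adjusted p = 0.649). Mitochondrial aminoacyl-tRNA synthetases, which charge transfer RNAs, were higher in 7 of 17 and lower in 10 (median −0.06). Genes for transcription of mitochondrial DNA were higher in 2 of 6 and lower in 4 (median −0.19). Of these, Tefm, the transcription elongation factor, had a log2 fold change of −0.34 (SE 0.30, edgeR adjusted p = 0.721), which became 0.05 without WT replicate 1 and KO replicate 4 and 0.07 with the covariate.

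Against other machinery, the mitochondrial ribosomal genes lay between. Cytosolic ribosomal protein genes were fitted lower in 57 of 76 and higher in 19 (median −0.28). Nuclear genes of the respiratory chain were even, 38 higher and 40 lower of 78 tested (median −0.01). The 13 mitochondrially encoded protein genes, the products of this ribosome, were all fitted higher in KO (median 0.79). EdgeR called 0 of them and had 1 at an unadjusted p under 0.05, where 5.37% of all genes were higher. DESeq2 called 0 of the 13 as well but had 5 at an unadjusted p under 0.05, as were 9.99% of all genes. Limma-voom called 0 and had 1 at an unadjusted p under 0.05, as were 8.08% of all genes. With sample quality weights limma-voom called 7, all higher, where it called 15.1% of all genes higher. Within WT, replicate 2 was the lowest library for 47.4% of cytosolic ribosomal and 52.6% of respiratory chain genes, against the 77.9% of the mitochondrial ribosomal genes. Within KO, replicate 4 was the lowest for 38.2% and 44.9%, against 62.3%. Differences between these gene groups were not tested.

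**Figure D5:**
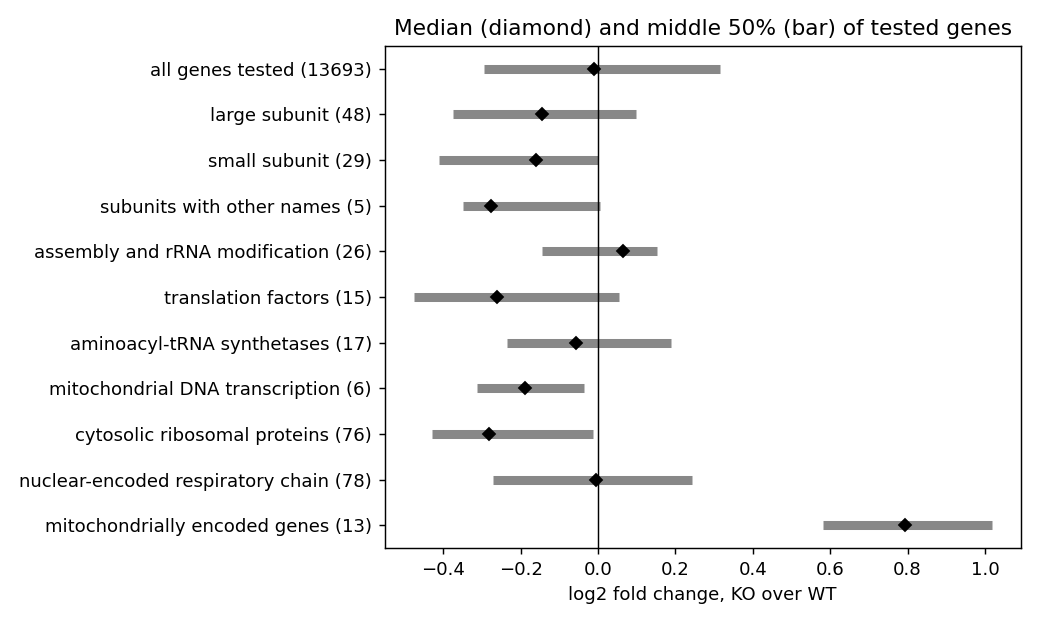
Median (diamond) and middle 50% (bar) of the log2 fold change of KO over WT, for all tested genes, both subunits, partner gene lists and comparison groups, with the number of tested genes in brackets. The medians of both subunits (−0.14 and −0.16) lie between those of cytosolic ribosomal proteins (−0.28) and the nuclear respiratory chain (−0.01), and the mitochondrially encoded genes stand at 0.79.

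Many members start close to another gene. Of the 78, 33 (42.3%) have a protein-coding gene on the opposite strand that starts within 1000 bases, against 15.95% of the tested protein-coding genes. In the 28 such pairs with both genes tested, 9 pairs were fitted in the same direction and 19 in opposite directions. Mrpl32 and its neighbour Psma2, a proteasome subunit, had log2 fold changes of −0.67 and 0.03. For Mrps12 and Sars2, which face each other across the printed gap, they were −0.58 and −0.06. Mrpl46 and Mrps11 form a pair within the family, at −0.71 and 0.32. Because Mrpl46 shares 12.2% of its exon bases with another gene, and Mrps11 7.97%, reads from such stretches cannot be assigned without strand.

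Shared exons limit some of the values above. In all, 33 members share some exon bases with another gene and 18 share at least 10%, among them Mrps34 with 77.8%, Mrps25 with 69.8%, Mrps18b with 30.5%, Mrpl24 with 26.3%, Mrpl47 with 24.2% and Mrps18c with 23.2%. On the same strand, 5 members share at least 10%, Mrps34 among them with 37.0%. The sources used here do not give whether the counting used strand. Of the 17 tested members that share at least 10%, 13 were fitted lower (median −0.34), and of the 60 that share less, 39 were (median −0.14). The part of shared exons in these differences was not tested.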

How the data were processed

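Liver RNA was extracted with Trizol and made into Illumina TruSeq libraries, per the labels' protocols. Tools given, without roles, in the submitters' processing notes are featureCounts 1.5.0-p3, HISAT2 2.0.5 and, with build mm10, DESeq2 1.16.1. Of the 2 tables the authors deposited, the main one gives raw read counts for 54532 genes. The deposited FPKM table, with the same genes, served as an alternative. Groups came from the sample titles. The main test was that of edgeR 4.0.16 under R 4.3.3 (TMM, filterByExpr, quasi-likelihood test, Benjamini-Hochberg adjustment over 13693 genes, threshold 0.05), and SEs were derived from its F statistic. The biological coefficient of variation was 34.7%, and the lowest count of a tested member was 26. The test was checked on simulated counts.

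The members, lists and rules were chosen with earlier results of these data known. Differences were given for the 5 members with the smallest p per subunit and for the smallest p per role. Genes of the partner lists were likewise picked by smallest p within their list, and only some of those picked are described. Of the aminoacyl-tRNA synthetases, none picked in this way is described. Other genes were named for their level, spread, role or library order after their values were seen. Library orders, neighbours and promoter motifs were also chosen after seeing the data. Exon overlap and neighbours came from GENCODE vM21, where 73 of 78 members had the same position and length. Alternatives were DESeq2 1.42.0, limma 3.58.1 (voom, with and without sample quality weights, and FPKM with pseudocounts of 1 and 0.1), other scalings and filters, left-out libraries and the mitochondrially encoded share as a covariate.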

Additional observations from a re-analysis of the deposited data

How the results depend on the processing

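With 3 libraries a group and a median SE of 0.24, a gene that was not called is not shown to be equal between genotypes. No paired analysis was possible because the titles give each library its own number, so the groups share none. Over all genes, the 2 calls became 176 with DESeq2, 1 with limma-voom, 4063 with limma-voom and sample quality weights, 1 with library size alone, 61 with no filter beyond 1 count, 1 with the mitochondrially encoded share as a covariate, and 0 without WT replicate 1 and KO replicate 4; leaving out each library in turn gave 0 to 1, the 1 being without KO replicate 5. Of the members, 26 were called under limma-voom with sample quality weights, 5 higher and 21 lower, and 0 under every other setting run. The cause of these changes was not tested.

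Members fitted higher numbered 25, and 44 both without WT replicate 1 and KO replicate 4 and with the covariate; leaving out each library in turn gave 22 to 30. At an unadjusted p under 0.05 there were 12 members (15.6%) without KO replicate 5, where 19.1% of all genes were, and 7 (9.09%) without WT replicate 2, where 14.2% were, against 1 (1.30%) and 8.58% with all libraries. Leave-one-out medians ran from −0.26 to −0.05 for the large and from −0.30 to −0.06 for the small subunit, and their difference from 0.01 to 0.05. Leave-one-out differences ran from −1.02 to −0.07 for Mrpl12, −1.10 to −0.43 for Mrpl46, −0.26 to −0.01 for Mrps30, −1.15 to −0.52 for Mrpl3, −0.99 to −0.48 for Mrpl32 and −1.49 to −0.38 for Chchd1. Reversed were Mrps24 (0.00249 with the covariate), Mrpl12 (0.19 without WT replicate 1 and KO replicate 4, 0.36 with the covariate), Chchd1 (0.15 with the covariate) and Tefm (0.0506 without WT replicate 1 and KO replicate 4, 0.0699 with the covariate). Of the other values for single genes, 447 kept direction and side of the threshold and 18 passed it, all 18 under sample quality weights.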
